A study of Mus musculus with 2 samples.

Results

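The transcript models described here lack the 5′ exons of the annotated transcripts they otherwise match. They are the models that the authors' tables class as incomplete splice matches of the suffix kind, in annotated genes and not on spike-ins, and are called late-start models below. A late-start model has an intron chain that equals the 3′ part of an annotated chain. Replicate 1 held 17056 of them among 81166 models and replicate 2 held 12270 among 74548. Both libraries were long-read RNA sequencing of total RNA (2 µg) from gastrocnemius, the large calf muscle, of female B6CASTF1/J mice aged 14 days, a hybrid of 2 inbred strains. They form 1 group of 2 replicates with no treatment and no contrast between conditions. One biosample label counts 3 females (replicate 1), the other speaks of a female (replicate 2), and the donor identifier is the same, so the labels do not show that separate animals were used. All 7 skeletal muscle markers, among them Acta1, Ckm and Myh4, had reads in both libraries (27.7% and 18.6% of the reads of annotated genes in replicates 1 and 2). Schwann cell markers summed to 0.0606% and 0.250%, endothelial and mural markers to 0.0573% and 0.0686%, and blood markers to 0.188% and 0.160%. The part of these differences in the results was not tested.

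Reads of long-read libraries are usually copied from the poly(A) tail toward the 5′ end of the RNA. A read without its 5′ exons can come from RNA that began at an internal promoter, from RNA that was broken before copying, or from a copy that stopped early. The classes of the tables do not tell these apart. Skeletal muscle is known for genes with internal promoters, such as Myl1, whose promoters give 2 myosin light chains, and for very long messages, such as those of myosin heavy chains and titin, along which a read has far to go.

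The bases around 5′ ends are shown for 6 ends that both libraries shared and on which the results below turn. The lower-case letters are the last 15 bases of the annotated transcript before the end and the capitals are the first 15 bases that the late-start models hold. They come from GENCODE M21 transcripts (GRCm38) and read 5′ to 3′ on the strand of the gene.
Hrc exon 3: tgttctttctgcaacCGATGTACCGAATGT
Myh4 exon 36: aaactggaggctaggGTGAGGGAGCTTGAA
Trdn exon 6: aaatacaaactaaagCTTCACACAGAGAAA
Actn2 exon 12: agacatgggcttatgGCAAAGAACAGATCT
Ndufs7 exon 7: ggtgtccatggggagCTGTGCCAATGGCGG
Ndufa4 exon 3: taatccagatgtcagCTGGGACAGAAAGAA
Each change from lower case to capitals falls on an annotated junction between exons, so these letters show where the annotated exon begins, and not the first base of any single read.

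The late-start models took 84159 of 1248854 reads of annotated genes in replicate 1, which is 6.74% (Wilson 95% interval 6.70 to 6.78%). In replicate 2 they took 99497 of 1106450, or 8.99% (8.94 to 9.05%), a mean of 7.87% ± 1.59 (SD, n = 2). The counterpart class that lacks 3′ exons took 0.733% and 0.325%. A few genes carried much of the class: the 10 genes with the most late-start reads held 34.9% of them in replicate 1 and 45.2% in replicate 2. Outside the 14 genes that make up these lists in either library, the late-start share was 6.01% (5.96 to 6.06%) and 5.98% (5.93 to 6.03%). These 14 were chosen by their late-start reads in the same libraries. The narrower gap without them can follow in part from that choice, and this was not tested. Most models were thin, with 65.0% and 65.6% of them resting on a single read. The 949 and 753 models with at least 10 reads held 67.3% and 80.2% of the late-start reads. The late-start reads of replicate 2 were shorter, with a median model length of 573 bases against 1825. Over all reads of annotated genes the mean model length was 1545.4 bases in replicate 2 and 2346.9 in replicate 1, and the part of this difference in the results below was not tested. Intervals and tests on reads cover counting error only, and compare these libraries and not conditions.

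Most late-start reads lacked several exons. An annotated transcript with a matching 3′ chain was found for 87.2% and 91.8% of the models. Against it the median read lacked 4 exons and 678 bases in replicate 1 and 3 exons and 647 bases in replicate 2, and held 70.8% and 56.0% of its length. The 5′ end lay in coding sequence for 82.9% and 82.1% of these models, in the 5′ untranslated region for 6.51% and 6.06%, and in an intron of the matching transcript for 8.26% and 8.41%. The 3′ untranslated region held 0.464% and 0.799%, and the rest matched transcripts without coding sequence. A model of this class needs at least 1 junction, so a read that began inside the last exon is not among them.

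The deposited 5′ ends lay almost entirely on exon boundaries. In replicate 1, 65.2% of the models began on the first base of an annotated internal exon and 20.98% on an annotated transcript start, and in replicate 2 the shares were 65.8% and 21.5%. With other boundaries of the gene and of other genes, 93.4% and 95.5% of the ends coincided with the annotation. A further 815 and 379 ends coincided with a splice site of an unannotated model of the same library. Of these, 593 and 280 lay on the first base of an exon, and 222 and 99 only on the last base of one. That left 307 models (1.80%) in replicate 1 and 173 (1.41%) in replicate 2 with an end on no other exon boundary. Every late-start model had an intron chain of its own within its library, so all reads of a chain share 1 deposited coordinate. No source used here states how that coordinate was set. The positions below are therefore read at the level of the first exon, and whether the 307 and 173 others mark the first base of a read was not tested.

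Grouped by gene and first exon, the late-start models made 15563 first exons in replicate 1 and 11552 in replicate 2. Of the 21231 in all, 5884 (27.7%) were begun by reads of both libraries, and these held 83.8% and 92.5% of the late-start reads. A 5′ end within 25 bases in the same first exon of the other library was found for 35.3% of models and 70.3% of reads in replicate 1, and for 45.9% of models and 79.0% of reads in replicate 2. The share followed the reads behind the model. It was 23.8% and 34.4% among models with 1 read, 72.5% and 79.6% at 5 to 9 reads, and 84.5% and 88.1% at 50 reads or more. A match of the first exon alone was found for 99.5% (186 of 187) and for all 185 at 50 reads or more. A model of few reads is also less likely to be drawn in both libraries, and that part was not tested.

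**Figure D1:**
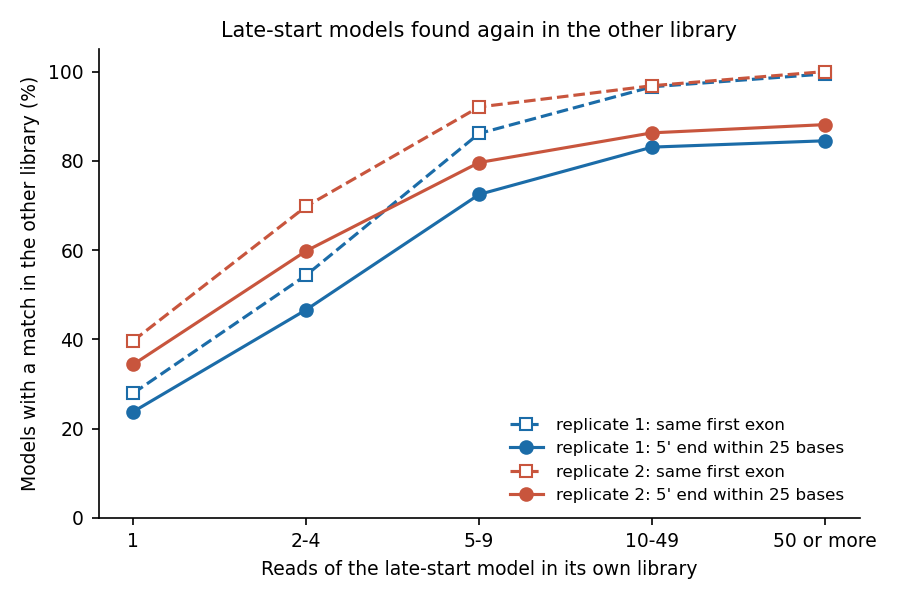
Percent of late-start models (y axis) with a match in the other library, by the reads of the model in its own library (x axis); filled circles are 5′ ends within 25 bases and open squares the same first exon. From models of 1 read to those of 50 or more, sharing of ends went from 23.8% to 84.5% in replicate 1 and from 34.4% to 88.1% in replicate 2.

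Where the first exon was shared, the ends mostly had the same coordinate. For ends on an exon boundary, 81.5% of 6914 models in replicate 1 and 83.0% of 6395 in replicate 2 lay at 0 bases from the nearest end of the other library, 5.28% and 4.91% at 1 to 25 bases, and 1.74% and 1.53% at 26 to 50 bases. For the ends on no other exon boundary the picture was different. Only 65 and 62 of them shared a first exon with such an end in the other library, 1 lay at 0 bases, 14 at 1 to 25 bases, and 34 and 30 at over 200 bases. Counted over all such ends, 15 of 307 and 15 of 173 were shared within 25 bases. The bands from 26 to 200 bases, of 25 bases each, held between 1 and 7 of these models.

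Reads on the same first exon could also be placed at different coordinates. In 300 first exons with at least 20 late-start reads in each library, the end with the most reads was on the same base in 242 and within 25 bases in 255 (85.0%). In 40 of the other 45 both ends lay on an exon boundary. Atp5b, the beta subunit of ATP synthase, was the one with the most reads. All 1588 reads that began in its exon 9 in replicate 1 were placed at position 128089041 of chromosome 10, an annotated transcript start, and all 3809 of replicate 2 at position 128088957, the first base of the annotated internal exon, 84 bases upstream. Tnnt1, the slow skeletal troponin T, had 452 reads at position 4507612 of chromosome 7 in replicate 1, the first base of the annotated internal exon, and 4100 at position 4508025 in replicate 2, an annotated transcript start 413 bases upstream. Such pairs count as unshared ends although the first exon is the same.

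The bases on both sides of the ends on no other exon boundary were rich in G. Sequence inside the annotated exon was at hand for 202 ends of replicate 1 and 135 of replicate 2. The base just upstream was G in 63.9% and 62.2%, and the first base that the model holds was G in 53.5% and 59.3%. Over all positions of the exons searched, G made up 26.8% and 26.8%. The letters GGG stood just upstream of 14.9% and 9.63% of these ends, against 1.79% and 1.86% of all positions. At ends on splice sites of unannotated models, AG stood upstream of 73.4% and 73.1% (9.49% and 9.35% of all positions) and GGG of 0.429% and 0.633%. AG stood upstream of 15.8% and 10.4% of the ends on no other boundary. The 4 of these ends with the most reads among those shared within 25 bases are shown as above, at the coordinate of replicate 1. They rest on 3 to 13 reads in each library and were chosen after their values were seen.
Pelp1 exon 16: tgatgaagaggaggaGGAGGAAGAGGAAGA
Rrbp1 exon 2: gcaagaagggggaggGGGCTTCCAACCAGA
Ice1 exon 13: tccggcaagaagtggGGCCACCACTGCCTC
Zfp687 exon 2: gcaagggggagggggCTGTCACTTCCTCTA
All 4 lie in coding sequence, inside exons of 1431, 2119, 4698 and 2132 bases. Pelp1 encodes a coregulator of nuclear receptors and Rrbp1 a ribosome-binding protein of the endoplasmic reticulum. GGG stands just before the end in Zfp687 only. These letter counts describe ends within an exon and say nothing of a factor or a site. Of the ends with an annotated exon of the same 3′ junction, 193 of 291 and 127 of 166 lay downstream of its start, and 190 and 122 of these by over 500 bases.

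Of the 15 shared ends with the most reads, 1 per gene, 14 are described by the start share: the late-start reads that begin in a first exon as a percent of all reads of the gene that cross its 3′ junction. For an end named by its position, here and below, only the late-start reads placed at that position are counted. The start share so counted was 0.682% to 99.7% in replicate 1 and 1.45% to 99.8% in replicate 2. Among these 14, the coordinate of Atp5f1 differed by 18 bases between the libraries and each of the others was the same in both.

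Hrc and Trdn, genes of the calcium store, were among them. Hrc encodes a histidine-rich calcium-binding protein of the sarcoplasmic reticulum. At position 45337887 of chromosome 7, the first base of its exon 3 of 6, 792 of 868 crossing reads began in replicate 1 (91.2%) and 5844 of 6046 in replicate 2 (96.7%). Upstream of that base lie 2019 of the 2214 coding bases of Hrc. Both libraries were high, and the known models of Hrc had only 55 and 142 reads. Trdn encodes triadin, an anchor of the calcium release complex. At position 33183954 of chromosome 10, at exon 6, 166 of 861 reads began in replicate 1 (19.3%) and 1220 of 1827 in replicate 2 (66.8%). By Fisher's exact test with Benjamini-Hochberg adjustment over all first exons tested, this start share of Trdn was higher in replicate 2 (adjusted p = 2.41e-119).

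Of the 14, the end in Myh4 had the largest difference in start share. Myh4 encodes the heavy chain of the fastest fibres (IIb). Its exon 36 of 38, from position 67259083 of chromosome 11, was begun by 194 of 28444 crossing reads in replicate 1 (0.682%) and by 6382 of 11859 in replicate 2 (53.8%), the second most reads of any shared end. Exon 36 leaves 5466 of the 5817 coding bases upstream. Reads began in all 36 internal exons in both libraries, with a median start share of 0.817% in replicate 1 and 2.03% in replicate 2. The highest in replicate 1 was 3.13% at exon 10, where replicate 2 had 4.24%. Myl1, the gene of myosin light chains 1 and 3, had 1055 of 16232 reads and 3887 of 24267 (16.0%) at position 66926622 of chromosome 1. This position lies 85 bases into the annotated exon. In the annotation it is the 3′ end of a transcript of the gene and not a splice site.

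**Figure D2:**
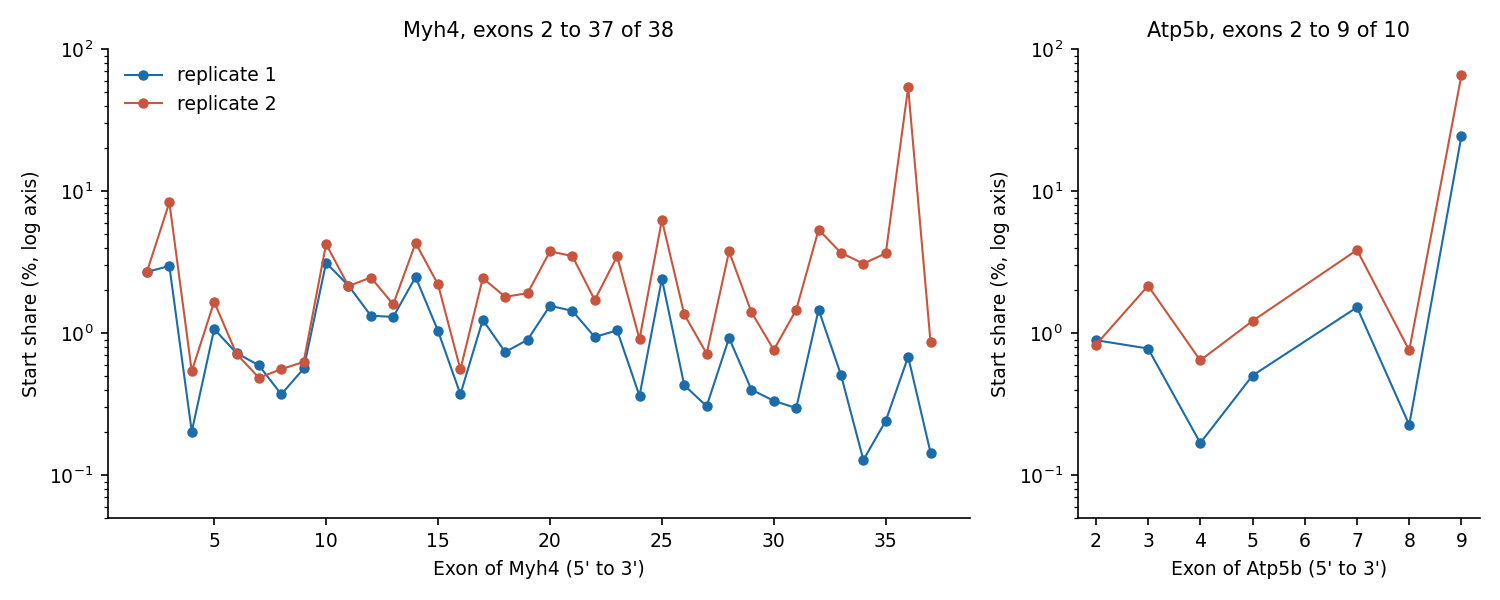
Start share (y axis, percent on a log axis) of each internal exon of Myh4 and Atp5b in the order of the transcript (x axis, exon number), 1 line per library; exon 6 of Atp5b had no late-start read and is not drawn. The last peak of each gene is exon 36 of Myh4 (0.682% and 53.8%) and exon 9 of Atp5b (24.6% and 65.7%).

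Among thin filament and Z-disc genes, Acta1 (skeletal actin) had 1656 of 87185 reads (1.90%) and 1111 of 76907 (1.45%) at its exon 3, position 123893470 of chromosome 8. Actn2, the alpha-actinin that links thin filaments at the Z-disc, had 772 of 4256 (18.1%) and 634 of 1559 (40.7%) at exon 12 of 21, position 12288657 of chromosome 13. Over all 19 internal exons of Actn2, exon 12 included, the median start share was 0.255% and 0.452%. Exon 12 held 772 of the 983 and 634 of the 773 late-start reads of Actn2.

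Genes of energy supply made up 8 of the 14. Ckm, the muscle creatine kinase, had 1761 of 76066 reads (2.32%) and 2302 of 65547 (3.51%) at exon 7 of 8. Pgam2, the muscle phosphoglycerate mutase, had 292 of 4159 (7.02%) and 734 of 6631 (11.1%) at exon 2 of 3. Both start shares were low in both libraries although the reads were many. In the mitochondrial genes the shares were high. Ndufs7, a core subunit of respiratory complex I, had 366 of 870 reads (42.1%) and 1358 of 2058 (66.0%) at exon 7 of 8. Ndufa4, a cytochrome c oxidase subunit first assigned to complex I, had 849 of 1877 (45.2%) and 2439 of 4291 (56.8%) at exon 3. Ndufa13, another complex I subunit, had 756 of 758 (99.7%) and 1667 of 1671 (99.8%) at exon 2 of an annotated transcript, 288 bases from a RefSeq start. Atp5f1, the b subunit of ATP synthase, had 1037 of 1048 (98.95%) and 1132 of 1143 (99.0%), and Atp5j, its coupling factor 6, had 880 of 1081 (81.4%) and 1811 of 2119 (85.5%). Both of these ends lay on annotated transcript starts in the 5′ untranslated region.

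**Figure D3:**
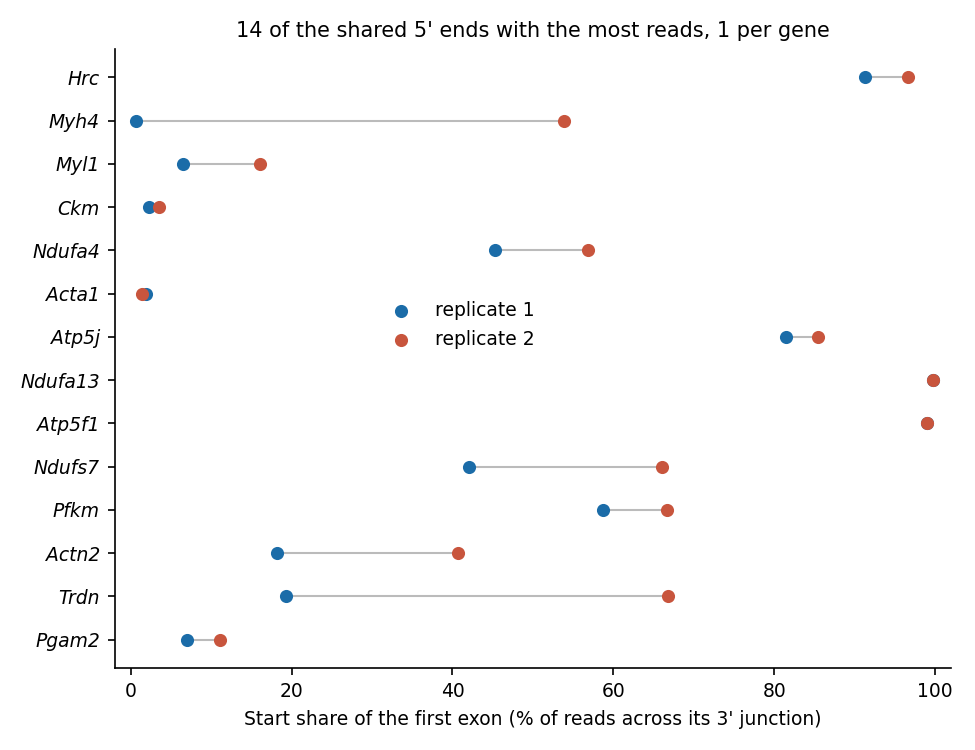
Start share (x axis, percent of reads across the 3′ junction of the first exon) at 14 of the 15 shared 5′ ends with the most reads (y axis, genes in the order of reads), 1 point per library. Ndufa13 and Atp5f1 lie near 99% in both libraries, Ckm and Acta1 below 4% in both, and Myh4 and Trdn are far apart.

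A start share of at least 50% in both libraries was seen at 39 first exons in 39 genes, of 10173 crossed by at least 20 reads in each library. The median start share over these 10173, each begun by a late-start read in at least 1 library, was 0.831% and 1.04%. Beside Hrc, Tnnt1 and others named above, they included Tecr, a reductase of very long chain fatty acid synthesis (63.4% and 70.8%). It was named after its values were seen, as were the others of this group named here. Serping1 (87.2% and 83.3%), Ctsa (92.8% and 91.9%), Hnrnpf (54 of 55 and 29 of 29 reads) and Gnas (51.0% and 60.5%) began on annotated transcript starts. At such a first exon the deposited position is itself an annotated start of the gene, and where the reads began was not tested. Cdh13 (183 of 189 and 42 of 42 reads) and Psmc2 (97 of 99 and 67 of 68) began on the first base of an annotated internal exon. The nearest annotated GENCODE start was 191191 bases away in Cdh13 and 1367 in Psmc2. A RefSeq start lay 97 bases from the Psmc2 end.

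Of the shared late-start models, 24.3% in replicate 1 and 24.2% in replicate 2 began within 25 bases of an annotated transcript start of the gene. Among the models with an unshared end it was 19.5% and 19.5%. These include models whose first exon was begun in both libraries, as in Atp5b and Tnnt1. Of the 10 named ends of this kind, those of Atp5j and Atp5f1 are given above. Fxyd1, phospholemman, a regulator of the sodium pump, had 90 and 603 reads (6.05% and 8.75% start share). Tpm1, the alpha-tropomyosin gene, had 87 and 518 (0.261% and 2.14%), and Eno3, the muscle enolase, 115 and 360 (1.12% and 4.01%). Aldoa, the muscle aldolase, had 296 and 167 (2.22% and 2.24%), and Mylpf, the fast regulatory light chain, 272 and 406 (1.04% and 1.07%). In Aldoa and Mylpf the start shares of the libraries lay close together. Tnni2, the fast troponin I, had 2 and 518 reads at the named position (0.0452% and 15.8% of the crossing reads). Its whole first exon held 319 and 518 late-start reads, and 317 of those in replicate 1 were placed at another annotated start. The 0.0452% is thus not the share of that exon. Paip2, a regulator of poly(A)-binding protein, had 92 and 311 (39.7% and 67.9%), and Myl1 227 and 215 (2.39% and 1.46%).

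First exons that opened at least 25 bases upstream of every annotated exon with the same 3′ junction made up 6.31% and 6.76% of the shared models. Among the models with an unshared end they made up 7.85% and 7.42%. The 10 named ends of this kind were in Pfkm, Mylpf, Myl1, Tnni2, Atp5g3, Banf1, Pygm, Hrc, H19 and Acta1, with 2 to 1008 reads in replicate 1 and 48 to 501 in replicate 2. At 7 of them (Mylpf, Myl1, Tnni2, Atp5g3, Banf1, H19 and Acta1) the position was an annotated start of another transcript of the gene, and at Hrc it was the last base of the exon before. Banf1, a chromatin-binding protein, had the highest start share of these 8, with 57 of 134 reads (42.5%) and 144 of 274 (52.6%).

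Pfkm had the most reads of this kind. It encodes the muscle phosphofructokinase, which sets the pace of glycolysis, and 1008 reads of replicate 1 and 501 of replicate 2 began at position 98112034 of chromosome 15, 87 bases upstream of the annotated exon that ends at 98112246. The start share was 58.7% and 66.7%, high in both libraries, and the nearest annotated GENCODE start was 3568 bases away. A RefSeq start of Pfkm lies at 98112060, 26 bases downstream of the end. The 150 bases before that RefSeq start are shown, chr15:98111910-98112059 on the plus strand (RefSeq, GRCm38.p6), with the 26 bases from the deposited 5′ end in capitals.
Pfkm: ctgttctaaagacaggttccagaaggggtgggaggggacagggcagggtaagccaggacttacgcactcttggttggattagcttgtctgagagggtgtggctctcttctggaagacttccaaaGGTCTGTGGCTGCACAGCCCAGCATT
No TATAAA and no E-box of the form CANNTG was found on either strand of these 150 bases, while 7.57% and 47.7% of 32851 RefSeq promoter windows of the same length hold one. No match says only that these letters are not in the window. The coordinate 98112034 was also the last base of an exon of 1 unannotated Pfkm model in each library, with 4 reads in replicate 1 and 3 in replicate 2. The same held at Pygm, the muscle glycogen phosphorylase, whose end at position 6385118 of chromosome 19 (131 and 51 reads) was the last base of an exon of 1 model with 5 reads and 1 read. At both genes the exact base is thus shared with a splice site of the same library, and where the reads themselves began is not resolved. Besides Pfkm, shared ends within 50 bases of a RefSeq start but not of a GENCODE start were seen in Cuedc1 (19 and 7 reads), Ece1 (9 and 5) and Sun1 (6 and 4).

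The late-start share of a gene, its late-start reads as a percent of late-start and known reads, went up with transcript length in both libraries. Known reads are those of models with a whole annotated intron chain, whose read-weighted length is the length of the gene. Across genes with at least 20 such reads, the median was 3.25% in replicate 1 and 2.86% in replicate 2. Up to 500 bases it was 0% in both. At 1000 to 1500 bases it was 1.56% and 1.96%, at 4000 to 6000 bases 7.91% and 5.30%, and above 6000 bases 10% and 9.86%. Spearman's rho of share and length was 0.360 over 4300 genes and 0.291 over 3306, as a description, since genes of 1 library share its depth and RNA. Genes without any late-start read fell from 76.7% and 78.2% of the shortest to 14.7% and 16.4% of the longest. A late-start model needs a junction and a missing exon, so genes with at most 2 annotated exons have a share of 0 by definition. Such genes were not left out, and their part in the medians, in rho and in these counts was not tested. Pooled over reads the trend was less even: 9.79% and 7.65% up to 500 bases, 4.44% and 7.78% at 1000 to 1500, and 23.3% and 40.8% at 4000 to 6000, the bin that holds Myh4.

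**Figure D4:**
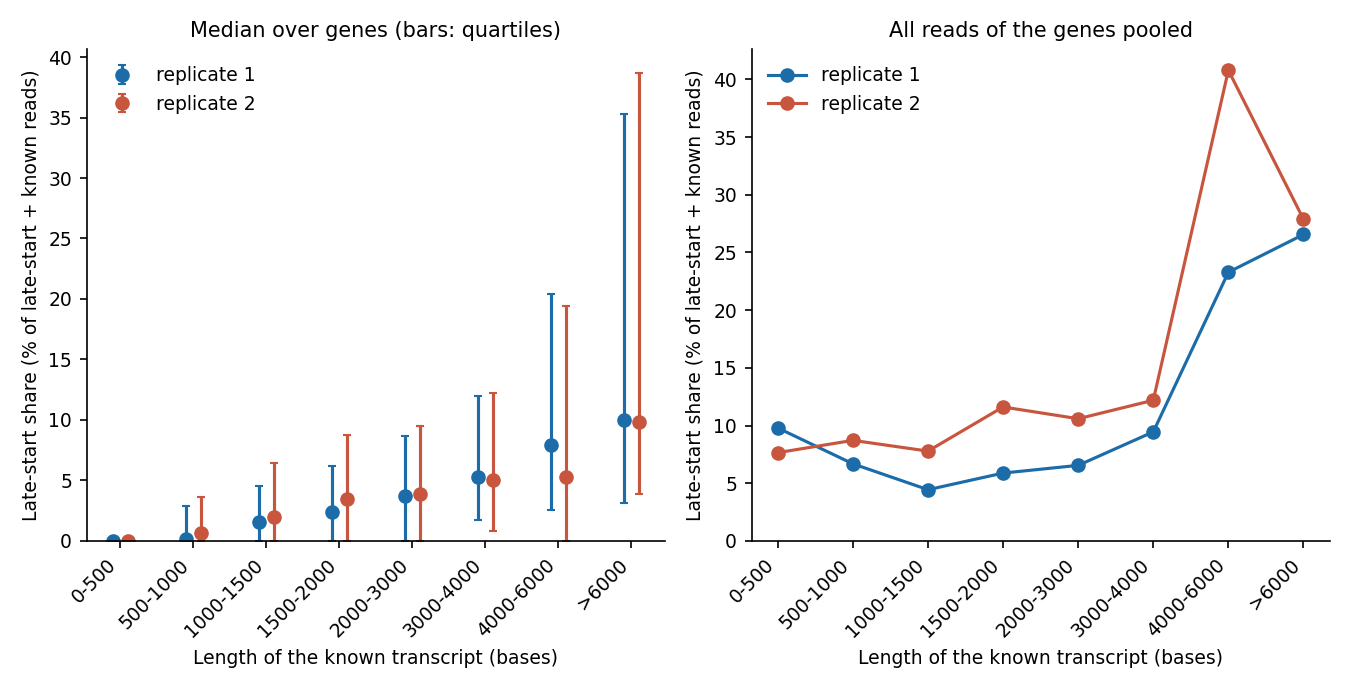
Late-start share (y axis, percent of late-start and known reads) by length of the known transcript (x axis, bases): median over genes with quartiles as bars on the left, reads pooled over genes on the right. The medians go from 0% to 10% and 9.86%, and the pooled share of replicate 2 peaks at 40.8% at 4000 to 6000 bases. Genes with at most 2 annotated exons, whose share is 0 by definition, are included.

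Counted from the 3′ end of the matching transcript, reads that reached a distance began within the next 500 bases at a rate that differed between the libraries near the 3′ end. In replicate 1 the rate was 1.04% in the first 500 bases, 2.54% at 1500 to 2000 and 4.29% at 3500 to 4000. In replicate 2 it was 4.33%, 3.66% and 5.58%. Without the 10 genes with the most late-start reads in each library, it was 0.917%, 2.41% and 3.83% in replicate 1 and 1.77%, 3.52% and 5.06% in replicate 2. The other bands of replicate 2 without these genes showed no steady rise. It had 3.67% at 500 to 1000 bases, 2.91% at 2000 to 2500, 3.35% at 4000 to 4500 and 4.14% at 5500 to 6000. The 5.06% was its highest band. In replicate 1 without these genes the rate was 3.62% at 4000 to 4500 and 4.84% at 5500 to 6000. Over all genes the last band held 11.9% and 7.37%. The genes left out were chosen by their late-start reads, in each library on its own. The change on leaving them out is thus partly by construction, and the gene sets of the libraries differ. Only late-start reads with a matching transcript and known reads with a junction are counted here, not all reads of the genes. The first 500 bases are undercounted, since a start inside the last exon is outside the class.

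The late-start share of single genes was compared between the libraries by Fisher's exact test in 3079 genes with at least 20 late-start and known reads in each. At an adjusted p under 0.05 and a difference of at least 10 percentage points, 81 genes (2.63%) were called, 5 of them (0.162%) higher in replicate 1 and 76 (2.47%) in replicate 2. At an unadjusted p under 0.05 there were 298. Set against all other reads of the gene in place of known reads, 93 were called, 24 higher in replicate 1 and 69 in replicate 2, so the split between directions depends on that choice. Over all 3079 genes the median share was 2.44% and 3.03%, and the share was above 50% in both libraries in 76 genes and 0 in both in 634. Genes above 6000 bases were called as higher in replicate 2 in 9 of 76 cases, and those of 500 to 1000 bases in 7 of 426.

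**Figure D5:**
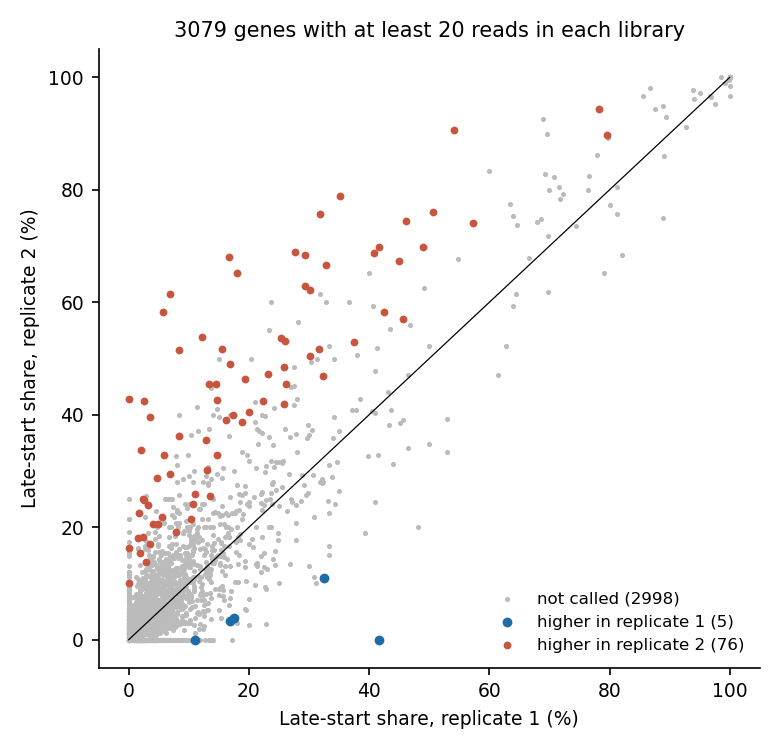
Late-start share of 3079 genes in replicate 1 (x axis, percent) and replicate 2 (y axis, percent), 1 point per gene; the line marks equal shares and colours mark the 5 and 76 genes called higher in one library. Nearly all called genes lie above the line.

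The 5 genes called as higher in replicate 1 are given first. Mea1 had 10 late-start and 14 known reads in replicate 1 (41.7%) and 0 and 36 in replicate 2, B230118H07Rik 32.4% and 10.9%, Lmna (the nuclear lamins A and C) 72 late-start and 338 known reads (17.6%) and 9 and 227 (3.81%), Tspan7 16.8% and 3.33%, and Eif4a3 11.1% and 0 of 81. In the other direction the largest differences were those of Sin3b (6.90% and 61.4%), Ssb, the La RNA-binding protein (5.71% and 58.3%), and Hsp90b1, a chaperone of the endoplasmic reticulum (16.7% and 68.1%). Dpm1 (17.9% and 65.1%), Cd36, a fatty acid uptake receptor (31.8% and 75.8%), Col6a2 (35.2% and 78.9%), Ndufaf5 (8.33% and 51.5%) and Synpo2 (0 of 89 and 42.9%) followed. These 8 genes had 0 to 45 late-start reads in replicate 1 and 17 to 75 in replicate 2.

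Among groups of muscle genes, 6 of 13 thick filament genes tested were higher in replicate 2 and 0 in replicate 1, beside 2.47% and 0.162% of all genes tested. Their median shares were 23.3% and 38.7%, and those of all genes 2.44% and 3.03%. Myh4 (54.1% and 90.6%), Myh1, the heavy chain of IIx fibres (30.1% and 50.5%), and Mybpc2, the fast myosin-binding protein C (13.5% and 25.5%), were called, while Myl1 (9.97% and 19.8%) missed the 10 points and Mylpf had 2.49% and 3.03%. Myosin heavy chain genes are near-identical in long stretches, so the reads assigned to each are uncertain, and this was not tested. Of 14 extracellular matrix genes 4 were called as higher in replicate 2, among them Col1a1 (14.6% and 32.9%) and Col4a1 (42.5% and 58.3%), with medians of 38.8% and 67.2%. Col3a1 (10.7% and 17.1%) and Sparc (25.5% and 27.2%) were not called. Of 25 thin filament and Z-disc genes 1 was called, Actn2 (23.1% and 47.3%), while Tnnc2 had 0.952% and 2.38%. Of 16 calcium store and triad genes 2 were called, Trdn (78.2% and 94.4%) and Cacna1s. Pvalb, the calcium buffer parvalbumin, had 7.41% and 15.02% and was not called. No gene of these lists was called as higher in replicate 1.

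The background of 2.63% stands beside each of the next lists too. Of 18 glycolysis and glycogen genes 2 were called as higher in replicate 2, among them Pygm (32.3% and 47.0%), with medians of 7.03% and 10.1%. Pfkm (64.6% and 73.7%) differed by less than 10 points. Of 27 nuclear mitochondrial energy genes 2 were called, Atp5b (27.7% and 68.9%) and Ndufa4 (45.7% and 57.0%), with medians of 3.00% and 3.56%, and Atp5a1 (6.08% and 7.75%) was not. Of 8 creatine and purine nucleotide genes 0 were called, and Ckm had 4.13% and 5.195%. Of 15 translation genes 2 were called, Eef2, an elongation factor (26.2% and 45.5%), and Rps3 (4.81% and 20.6%). Of 14 chaperone and proteolysis genes 1 was called, Hspa8 (3.52% and 17.0%). Of Schwann cell, endothelial and mural, and blood genes, 3, 3 and 5 were tested and 0 were called. Fabp4, a fatty acid binding protein of endothelial and fat cells, had 71.5% and 80.5%, and the myelin gene Mbp had 2.08% and 2.27%.

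The same test on the start share of each of 10173 first exons was added after these results were seen. It called 73 first exons (0.718%), 4 higher in replicate 1 (0.0393%) and 69 in replicate 2 (0.678%). Those higher in replicate 1 lay in Sbk1, a kinase gene, with 76 of 77 reads (98.7%) and 0 of 27, and in B230118H07Rik (28.2% and 9.01%), Lmna (16.3% and 0.336%) and Tspan7 (14.1% and 1.63%). Sbk1 was named after its values were seen, and its difference was the largest of the 73. Among the ends described above it called Myh4 exon 36, Trdn exon 6, Actn2 exon 12, Ndufs7 exon 7, Ndufa4 exon 3, Atp5b exon 9, the Paip2 exon and the Tnnt1 exon (80.4% and 95.8%). It did not call Hrc exon 3, whose 2 shares differ by less than 10 points, nor those of Atp5j, Ndufa13, Atp5f1 and Pfkm.

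Reads piled up at the same exon of both libraries in most of the genes with enough late-start reads to compare. In 222 genes with at least 20 late-start reads in each library and at least 3 first exons, the first exon with the most reads was the same in 149 (67.1%, Wilson 95% interval 60.7 to 73.0%). The interval takes genes as independent, although all come from the same 2 libraries. The first exon with the most reads held a median of 46.0% of the late-start reads of a gene in replicate 1 and 48.0% in replicate 2. With 3 to 5 first exons it was the same in 54 of 61 genes, with 6 to 10 in 57 of 81, with 11 to 20 in 29 of 44, and with 21 or more in 9 of 36. The leading exon was the same in Hrc, Pfkm, Ckm, Acta1 and Atp5b, with 33.3% to 97.0% of the late-start reads. It differed in Myh4 and Myh1, which have 46 and 41 first exons, and in Col1a1, where it held only 5.26% and 7.63% of 666 and 380 late-start reads spread over 49 first exons.

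Of 14 genes listed for known internal promoters, 13 had late-start reads in replicate 1 and 12 in replicate 2, 9 could be tested and 0 were called as different between the libraries. Besides Myl1, the share was 1.37% and 4.98% in Tpm1, 5.29% and 8.87% in Gnas, 5.41% and 15.1% in Ank1, 1.22% and 4.76% in Asph, and 0.200% and 0.652% in Tpm3. The medians over all genes were 2.44% and 3.03%. Aldoa had 866 and 755 late-start reads, 26.4% and 23.0% of late-start and known reads, but its reads of all classes numbered 13853 and 8092. The giant genes of this list had hardly any whole chain to be compared with: Ttn had 79 and 41 late-start against 2 and 2 known reads, and Speg 24 and 17 against 1 and 1. Dmd (4 and 2), Mylk (3 and 1) and Ppargc1a (1 and 0) had a few reads each.

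Very long muscle genes had high late-start shares, over a wide range. Over the 9 giant genes tested, of 26 listed, the median share was 86.7% in replicate 1 and 94.3% in replicate 2, and the lowest was 24.1% and 30.8%. Ryr1, the calcium release channel, had 409 and 225 late-start reads and no known read, in 442 and 252 reads in all. Nrap had 70.8% and 82.3%, the M-band gene Myom1 38.0% and 50.7%, and Myom2 24.1% and 30.8%. Cacna1s, the voltage sensor of the T-tubule, was the 1 of the 9 that was called (25.8% and 41.9%). High shares also stood beside few known reads in genes outside this list. Atp2a1, the fast calcium pump, had 3471 and 1794 late-start reads against 5 and 7 known ones (99.9% and 99.6%), but 144343 and 39622 reads in all, and Col1a2 had 550 and 341 against 0 and 0, with 616 and 501 reads in all.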

How the data were processed

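The authors deposited, per the file headers, raw read counts per transcript model for each library, with the class, exon number and length of each model, and an annotation file with exon positions counted from 1. The notes beside the files name mm10, GENCODE M21 and a filtered alignment, and the attributes name TALON. No source used here names the aligner, its version or the platform. Models without a read are not listed, and counts were not normalized. The tables held 1316937 and 1204188 reads. Late-start models are class ISM, subtype Suffix. Members and lists were chosen with earlier results of these data known. The first exon of a model is its gene and first donor site. Named ends are the 15 shared ends with the most reads, 10 opening upstream of the annotated exon and 10 at annotated starts (1 per gene in each); named genes are the 10 with the most late-start reads per library, 8 per direction among called genes, all internal promoter genes with reads and up to 5 of each other list, while others are said to be chosen after their values were seen. Shares have Wilson 95% intervals. Fisher's exact test, two-sided, was adjusted by Benjamini-Hochberg over all genes or first exons tested. Only the test on genes was tried on simulated counts, which held counting error and set changes but no other variation between libraries. That trial therefore says nothing of differences between libraries beyond counting error. Alternatives were other tolerances, read minimums, lengths, denominators and subtypes. Python 3.11.15, SciPy 1.17.1, pandas 2.3.3 and statsmodels 0.14.6 were used. RefSeq starts are from GRCm38.p6. Only transcript and promoter sequences were used, and ends outside annotated exons have no sequence here except that of Pfkm. Some genes that the naming rule selects are not reported here.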

Additional observations from a re-analysis of the deposited data

How the results depend on the processing

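Of 27 alternative values, 20 kept their direction and lay within the spread of the libraries or within 1.5 times the count. The mean share of models whose 5′ end was shared within 25 bases, 40.6%, became 62.3% in models with at least 2 reads and 80.6% with at least 5. Chosen after seeing the data, only ends on no other exon boundary gave 6.78% within 25 bases and 0.452% at 0 bases. The 81 genes called between libraries became 51 at 20 percentage points, by the construction of the threshold. Shared ends at annotated starts, 24.3%, were 24.2% within 10 bases, and those upstream of the annotated exon, 6.54%, were 7.10% with at least 2 reads; the cause was not tested. Leaving out a replicate gave late-start shares of 6.74 to 8.99% and a rho of 0.291 to 0.360. No paired analysis was possible because the libraries form a single group. Models of 1 read limit the depth: a count of 0 allows up to 3 reads. Most coordinates coincide with annotated exon boundaries, and how they were set is unknown.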
